A study of Drosophila melanogaster with 18 samples.

Results

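The core phototransduction cascade of the fly eye was followed at the level of its mRNAs through 9 genes chosen by name: the G protein subunits Galphaq, Gbeta76C and Ggamma30A, the phospholipase norpA, the diacylglycerol lipase inaE, the channels trp and trpl, the scaffold inaD and the protein kinase inaC. All 9 were found, among 10884 genes of the male table (by FlyBase identifier) and among 10480 genes of the female table (by symbol). The samples were whole heads of Drosophila melanogaster reared at 25 ºC, sequenced as polyadenylated RNA in 18 libraries that form 6 groups of 3. The study asked which genes depend on foxo, the fly's FOXO transcription factor, and how such genes change with age.

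The mutant group was females at day 3 after eclosion, homozygous for the foxo allele c431 (genotype label foxoc431/c431, titled foxo-/-). It was set against females at day 3 of the control line 5905 (w1118), called wild type here. The age series was males of the same control line at days 3, 15, 30 and 45. The w1118 line carries a mutation of white, a gene needed for the screening pigments of the eye, and the labels do not say whether the foxo mutants also carry it. No group paired the mutation with an age above day 3, and the sexes differ between the age series and the mutant comparison. The labels do not state that replicates were separate cultures or collections, so a p-value here reflects the spread between the given libraries, which may be technical.

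In the fly photoreceptor, light-activated rhodopsin switches on a G protein of the Gq class, whose alpha subunit activates a phospholipase C that cleaves the membrane lipid PIP2. Diacylglycerol and the loss of PIP2 lead to opening of the TRP and TRPL cation channels, and a PDZ scaffold holds the channel, the phospholipase and an eye-specific protein kinase C together in the light-sensing microvilli. The cascade is known as a model of G protein signalling in which mutants of its genes lose, prolong or weaken the light response.

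The male libraries held 2999956 to 4102364 reads over the genes in the table, recovered from normalized counts in which 1 read was worth 0.835 to 1.22. The least abundant of the 9 genes, inaE, rested on at least 394 reads in every library, where counting alone gives a coefficient of variation of 5.04%, beside 6.66% to 10.4% between replicates. The rhodopsin gene ninaE, which defines the outer photoreceptors, averaged 87261 normalized counts at day 3, more than any of the 9. In RNA from whole heads, fewer cells of a type and less RNA per cell cannot be told apart. Values per library are given below in the order of replicates 1, 2 and 3.

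Libraries of the same age differed in their circadian clock genes, and the labels give no hour of collection. A clock gene index was taken as the mean log2 level of tim, per and vri, whose transcripts are high in the early evening in light-dark cycles, minus the log2 level of Clk, which is high in the early morning. The index read 1.65, 2.64 and 3.52 at day 3, and -0.71, 0.25 and 1.46 at day 15. It read 1.26, 2.99 and 3.38 at day 30, and 2.98, 3.88 and -0.32 at day 45. All day 15 libraries lay below all day 3 libraries, and day 45 replicate 3 stood apart from the other two of its age. Fitted results that this library decides are given below with and without it, together with values from a fit that holds the index as a covariate.

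At day 45 all 9 cascade genes were lower than at day 3 in every library, so that for each gene the highest day 45 library lay below the lowest day 3 library. By limma with Benjamini-Hochberg adjustment over 8921 genes, 8 of the 9 fell at an adjusted p under 0.05 and none rose, against 18.3% of all tested genes that fell. The exception was trpl. Non-overlap in this direction was seen in 22.9% of all tested genes. The median log2 change was -0.56 over the 9 genes and 0.00398 over all tested genes. The 9 genes together took 1.41% of the recovered reads at day 3, 1.34% at day 15, 1.24% at day 30 and 1.03% at day 45.

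**Figure D1:**
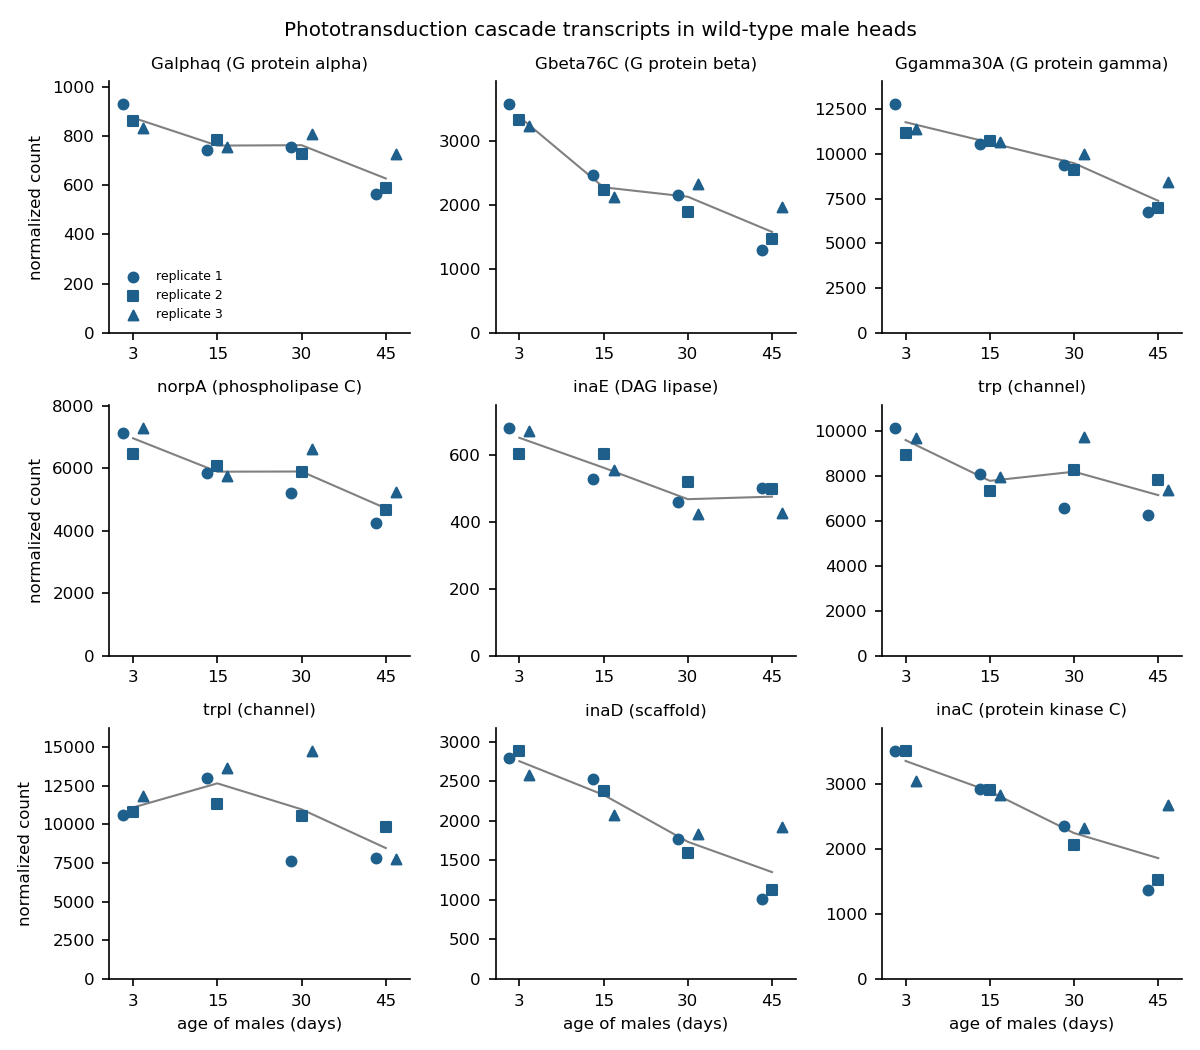
Normalized counts (y axis, from 0) of the 9 cascade genes in wild-type male heads against age in days (x axis). Each symbol is 1 library, with circles, squares and triangles for replicates 1, 2 and 3, and the line joins the means of 3 libraries. For every gene the day 45 symbols lie below the day 3 symbols, while trpl is widely spread at day 30 and replicate 3 is the highest day 45 library for inaD, inaC and the G protein subunits.

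Levels between genes were compared per kilobase of annotated exon. At day 3 the order was led by trpl at 2850 ± 167 normalized counts per kilobase, followed by trp at 2318 ± 148 and Gbeta76C at 2308 ± 121, which overlapped each other (SD, n = 3). Next came inaC at 1425 ± 114, inaD at 1181 ± 66.6, Ggamma30A at 939 ± 69.9 and norpA at 838 ± 53.7 normalized counts per kilobase, with no overlap between neighbours. Far below them stood Galphaq at 127 ± 7.07 and inaE at 91.3 ± 6.09. On this scale the alpha subunit was the least abundant of the 3 G protein subunits at day 3, in every library. Of the 6910 exon bases of Galphaq, 3050 are shared with CG45086 on the same strand. Whether reads from them were counted for Galphaq was not tested. At day 45 trpl (2176), trp (1726) and Gbeta76C (1078 normalized counts per kilobase) still led, but Gbeta76C, inaC (790), Ggamma30A (588) and inaD (580) each overlapped the gene next below, down to norpA (569). Exon length was the union over annotated transcripts, and with the longest transcript instead Galphaq stood at 155 and inaE at 109 normalized counts per kilobase at day 3.

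Among the G protein subunits the beta subunit gene changed most. Gbeta76C (FBgn0004623, dm6 chromosome arm 3L, 19687637 to 19689992, plus strand) encodes the beta subunit found in the eye. It read 3581, 3337 and 3234.5 normalized counts at day 3, and 2477, 2240.0 and 2121 at day 15. At day 30 it read 2165, 1893 and 2336, and at day 45 it read 1295, 1472 and 1973.5. No later library reached the day 3 range, and the day 15 and day 30 ranges overlapped. Relative to day 3, Gbeta76C had fallen by 0.57 on the log2 scale at day 15 (limma adjusted p = 0.00498), by 0.67 at day 30 (adjusted p = 0.000455) and by 1.12 at day 45 (SE 0.12, adjusted p = 2.18e-06). It was the only cascade gene to pass at day 15, 1 of 9 against 7.42% of all tested genes that fell at that age.

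Ggamma30A (FBgn0267252, 2L, 9256563 to 9302494, plus strand) encodes the gamma subunit of the same complex. Its normalized counts were 12782, 11151 and 11411 at day 3, and 10536, 10710.0 and 10677 at day 15. They were 9364, 9104 and 9992 at day 30, and 6735, 6964 and 8442.5 at day 45. Each age lay wholly below the one before it. The log2 change from day 3 was -0.14 at day 15 (limma adjusted p = 0.33), -0.31 at day 30 (adjusted p = 0.0166) and -0.68 at day 45 (SE 0.093, adjusted p = 2.62e-05).

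Galphaq (FBgn0004435, 2R, 12612740 to 12623197, plus strand) encodes the alpha subunit, which passes the signal to the phospholipase. The gene also has transcripts outside the eye, and its exons share 3050 bases with CG45086 on the same strand, a gene not analysed here. Its normalized counts were 929, 860 and 835 at day 3, and 742, 785 and 757 at day 15. They were 754, 728 and 807 at day 30, and 566, 590 and 727 at day 45. All later libraries lay below day 3, days 15 and 30 overlapped, and the day 45 range ended just under the day 30 range. The log2 change from day 3 to day 45 was -0.49 (SE 0.0875, limma adjusted p = 0.00036), and at days 15 and 30 it was -0.20 each time (adjusted p = 0.141 and 0.0975).

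The phospholipase C gene norpA (FBgn0262738, X, 4322626 to 4365408, plus strand) encodes the enzyme that cleaves PIP2. Its normalized counts were 7115, 6451 and 7299 at day 3, and 5852, 6076 and 5736 at day 15. They were 5214, 5869 and 6597 at day 30, and 4256, 4658 and 5236 at day 45. Day 15 and day 45 lay below day 3, day 30 overlapped both day 3 and day 15, and only day 45 passed the test against day 3. Means at day 45 and day 3 were 4716.5 ± 492 and 6955 ± 446 normalized counts (SD, n = 3 each), a log2 change of -0.56 (SE 0.0953, limma adjusted p = 0.000204). At day 30 the change from day 3 was -0.24 (limma adjusted p = 0.0606). It was called by limma without day 30 replicate 3 (-0.33, adjusted p = 0.0253) or day 3 replicate 2 (-0.30, adjusted p = 0.0397). DESeq2 called it with all libraries (-0.24, adjusted p = 0.0476).

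The lipase gene inaE (FBgn0261244, X, 13783714 to 13811493, plus strand) encodes an enzyme that breaks down diacylglycerol. It had 681.5, 601 and 670 normalized counts at day 3, and 528, 603 and 554 at day 15. It had 461, 519 and 423 normalized counts at day 30, and 500, 499 and 427 at day 45. Its level at day 45 overlapped that at day 30, and both lay below day 3. The log2 change from day 3 was -0.48 at day 30 (limma adjusted p = 0.000782) and -0.45 at day 45 (SE 0.0919, adjusted p = 0.000958).

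The TRP channel gene trp (FBgn0003861, 3R, 29914521 to 29920289, minus strand) encodes the more calcium-selective of the pair of light-activated channels. Its normalized counts were 10174, 8960 and 9717 at day 3, and 8096, 7342 and 7957 at day 15. They were 6568, 8296 and 9756 at day 30, and 6272, 7825.5 and 7389 at day 45. Day 30 overlapped day 3 through replicate 3, while days 15 and 45 lay below day 3. The log2 change at day 45 was -0.43 (SE 0.12, limma adjusted p = 0.00971), and without day 45 replicate 1 it was -0.34 and missed the threshold (adjusted p = 0.0527).

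The channel gene trpl (FBgn0005614, 2R, 9753697 to 9765518, plus strand) encodes the second channel, which leaves the microvilli in prolonged light. Its normalized counts were 10617, 10832 and 11832 at day 3, and 13004, 11327 and 13627 at day 15. They were 7639, 10525 and 14759 at day 30, and 7835, 9802 and 7774 at day 45. The day 30 libraries ranged from below all of day 45 to above all of day 15, with a coefficient of variation of 32.6%. The log2 change was 0.19 at day 15 (limma adjusted p = 0.498), -0.07 at day 30 (adjusted p = 0.797) and -0.40 at day 45 (SE 0.166, adjusted p = 0.0728). The day 45 change was called when day 30 replicate 1 or day 30 replicate 3 was left out of the fit (adjusted p = 0.0198 and 0.0191), when day 45 replicate 2 was left out (-0.51, adjusted p = 0.046), and when only days 45 and 3 were fitted (adjusted p = 0.0257).

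The scaffold gene inaD (FBgn0001263, 2R, 22855688 to 22858794, minus strand) encodes the PDZ protein that holds the signalling complex together. Its normalized counts were 2792, 2883.5 and 2581 at day 3, and 2527, 2375 and 2078 at day 15. They were 1775, 1595 and 1831 at day 30, and 1012, 1125.5 and 1916 at day 45. Days 3, 15 and 30 did not overlap one another, and at day 45 replicates 1 and 2 lay below all other libraries while replicate 3 lay above all day 30 libraries. The log2 change from day 3 was -0.25 at day 15 (limma adjusted p = 0.335), -0.67 at day 30 (adjusted p = 0.00416) and -1.08 at day 45 (SE 0.159, adjusted p = 5.52e-05). Without day 45 replicate 3 the day 45 change was -1.36 (adjusted p = 1.45e-08).

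The kinase gene inaC (FBgn0004784, 2R, 16898535 to 16901575, plus strand) encodes the eye-specific protein kinase C, which acts in deactivation of the response. It had 3508, 3505 and 3041.5 normalized counts at day 3, and 2919, 2902 and 2831 at day 15. It had 2355, 2059 and 2316 normalized counts at day 30, and 1375, 1523 and 2676 at day 45. As for inaD, the first 3 ages did not overlap and day 45 replicate 3 lay above all day 30 libraries. The log2 change from day 3 was -0.21 at day 15 (limma adjusted p = 0.416), -0.58 at day 30 (adjusted p = 0.0117) and -0.91 at day 45 (SE 0.163, adjusted p = 0.000326), and without day 45 replicate 3 it was -1.21 at day 45 (adjusted p = 2.16e-08). Over the 12 libraries inaD and inaC were the pair of cascade genes with the closest profiles (Pearson r = 0.989 of log2 levels), and trpl and inaE the pair with the least close (r = 0.283). These correlations hold the age differences and the clock differences of the same libraries, and they are given as a description.

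**Figure D2:**
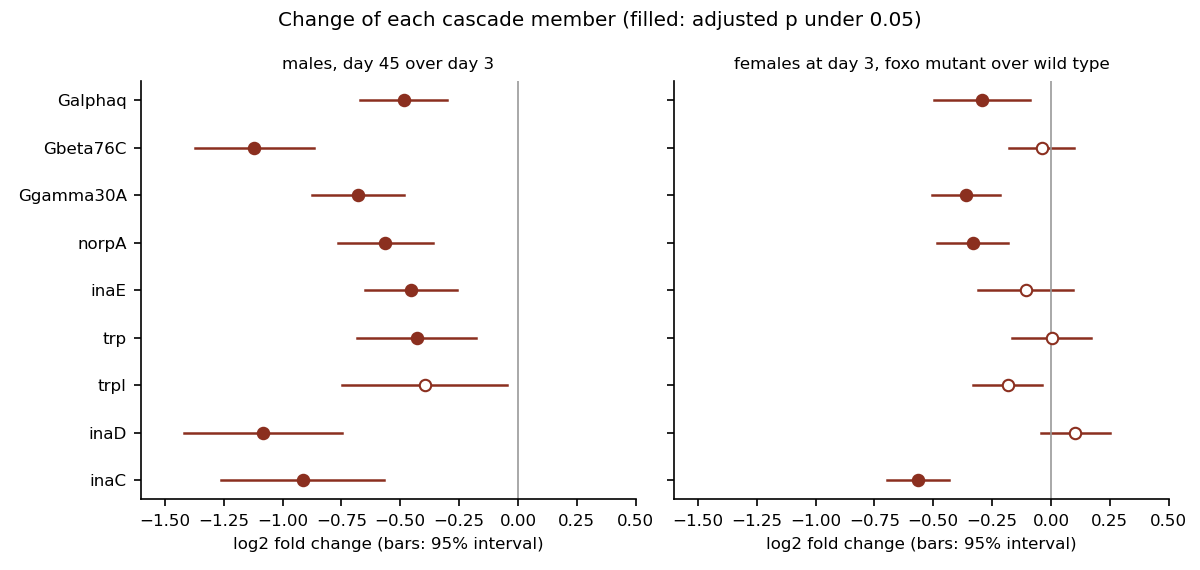
Log2 fold change (x axis) of each cascade gene, in males at day 45 over day 3 on the left and, from the authors' deposited table, in foxo mutant over wild-type females at day 3 on the right. Points are estimates, bars are 95% intervals, and filled points have an adjusted p under 0.05. With age 8 points are filled and all lie below 0, from Gbeta76C at -1.12 to trpl at -0.40, while in the mutant 4 points are filled, all below 0, from inaC at -0.56 to Galphaq at -0.29.

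By day 30 the count of cascade genes that had fallen from day 3 was 5 of 9 (Gbeta76C, Ggamma30A, inaE, inaD and inaC), against 16.5% of all tested genes, and none had risen. Without day 30 replicate 2 the count was 3, beside 24.5% of all tested genes called in either direction, with inaC (limma adjusted p = 0.0513) and Ggamma30A (adjusted p = 0.0719) lost. Ggamma30A also missed the threshold without day 3 replicate 1 (-0.25, limma adjusted p = 0.0624). By DESeq2 inaC missed it (adjusted p = 0.0532) and norpA passed (adjusted p = 0.0476), so that its count was also 5, among 2121 genes called. Without day 45 replicate 3 the count was 7, beside 33.5% of all tested genes called in either direction, with norpA (adjusted p = 0.0345) and Galphaq (adjusted p = 0.0344) added, and without day 30 replicate 3 trp passed (-0.38, adjusted p = 0.0263). Comparisons with day 3 share the same 3 day 3 libraries, so they do not count as separate support. Between day 30 and day 15, 0 of 9 passed by limma, edgeR's quasi-likelihood test or DESeq2, against 1.92% of all tested genes called by limma after adjustment. At an unadjusted limma p under 0.05 there were 3 (inaD, inaC and inaE), and the share of all genes at that unadjusted threshold was not taken. Without day 45 replicate 3, which enters that fit through the shared spread, 2 passed (inaD and inaC, adjusted p = 0.01 and 0.0129), beside 3.28% of all tested genes. Between day 45 and day 30 again 0 of 9 passed by limma or edgeR, against 0.415% of all genes called by limma after adjustment. DESeq2 called Ggamma30A (-0.36, adjusted p = 0.0106), among 64 genes that it called. At an unadjusted limma p under 0.05 there were 5, again without the share of all genes at that threshold. Without day 45 replicate 3, 5 genes fell between these ages, at limma adjusted p = 0.000689 each for inaD and inaC, 0.00192 for Gbeta76C, 0.00706 for Ggamma30A and 0.0121 for Galphaq. That fit called 1.11% of all tested genes between these ages. In the test for any difference between the 4 ages, 7 of 9 passed, against 31.5% of all tested genes, with trp (adjusted p = 0.0518) and trpl (adjusted p = 0.0594) just outside.

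With deviations from the age means pooled over the ages, 5 of the cascade genes ran against the clock gene index and the other 4 did not share that pattern. Over the 12 libraries, the Pearson correlation of each gene's deviation from its age mean with that of the index was -0.82 for inaD, -0.80 for inaC, -0.74 for Gbeta76C, -0.66 for Galphaq and -0.65 for Ggamma30A. The values were -0.12 for norpA, 0.25 for trp, 0.41 for inaE and 0.59 for trpl. Day 45 replicate 3, the library with the lowest index of its age, had the highest level of its age for 6 of the 9 genes. In this library the log2 level minus the mean of the other day 45 libraries was 0.844 for inaD, 0.886 for inaC and 0.515 for Gbeta76C. The correlations were not computed without it. At day 3, replicate 1, with the lowest index of its age, also had the highest level of its age for 6 of the 9 genes. At day 30, replicate 3 had the highest index and the highest level for 7 of the 9, with inaD, Gbeta76C, Galphaq and Ggamma30A among them. In a limma fit with the index as a covariate, chosen after the data were seen, 8 of 9 again fell between day 45 and day 3, where that fit called 36.1% of all tested genes in either direction. In that fit the count at day 15 against day 3 was 4, beside 8.18% of all tested genes called in either direction, with Gbeta76C (-0.79, adjusted p = 0.000282), inaD (-0.59, adjusted p = 0.00747), inaC (-0.56, adjusted p = 0.0133) and Galphaq (-0.32, adjusted p = 0.0455) all lower. Between day 45 and day 30 it was 3, Gbeta76C, inaD and Ggamma30A (adjusted p = 0.015, 0.0374 and 0.0417), beside 0.897% of all tested genes. The hour of collection itself was not tested, since no label gives it.

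**Figure D3:**
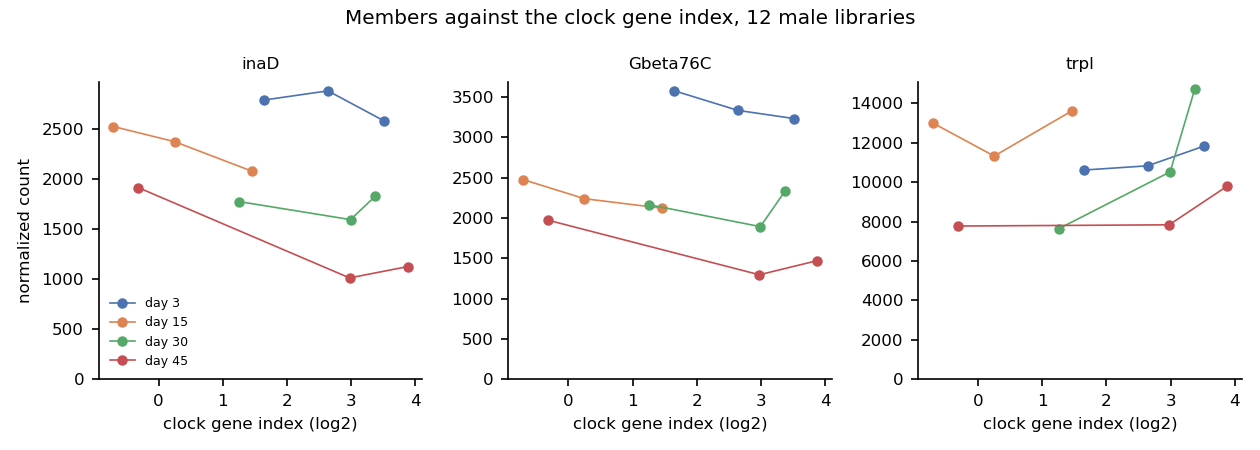
Normalized counts (y axes, from 0) of inaD, Gbeta76C and trpl in the 12 male libraries against the clock gene index (x axis, log2), coloured by age, with lines joining the 3 libraries of an age. Day 45 replicate 3, at an index of -0.32, has 1916 normalized counts of inaD where the other day 45 libraries, at 2.98 and 3.88, have 1012 and 1125.5. The trpl panel shows the opposite slope at day 30, up to 14759 normalized counts at an index of 3.38.

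Ratios of cascade genes within a library do not depend on how libraries were scaled. For 6 ratios, chosen after the data were seen, values are given as a description with no test. The ratio of Galphaq to Gbeta76C was 0.26, 0.258 and 0.258 at day 3, and 0.3, 0.351 and 0.357 at day 15. It was 0.348, 0.385 and 0.345 at day 30, and 0.437, 0.401 and 0.368 at day 45. Every later library lay above day 3, and the day 45 mean of 0.402 ± 0.034 was 1.55-fold the day 3 mean of 0.259 ± 0.0009 (SD, n = 3 each). Ggamma30A to Gbeta76C averaged 3.48 at day 3, 4.69 at day 15, 4.47 at day 30 and 4.74 at day 45, also with every later library above day 3.

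The ratio of trp to trpl averaged 0.869 at day 3, 0.618 at day 15, 0.77 at day 30 and 0.85 at day 45. It was 0.623, 0.648 and 0.584 in the day 15 libraries, below every other library of the series. Those libraries also had low clock indices, and the part of the clock difference in this ratio was not tested. The ratios to inaD averaged higher at day 45 than at day 3 for norpA (3.69 and 2.54) and trp (5.67 and 3.51), with overlap between the ages for norpA and none for trp. In day 45 replicate 3 these 2 ratios were 2.73 and 3.86, against 4.14 to 4.21 and 6.2 to 6.95 in the other day 45 libraries. The ratio of inaC to inaD lay between 1.16 and 1.4 in all 12 libraries.

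**Figure D4:**
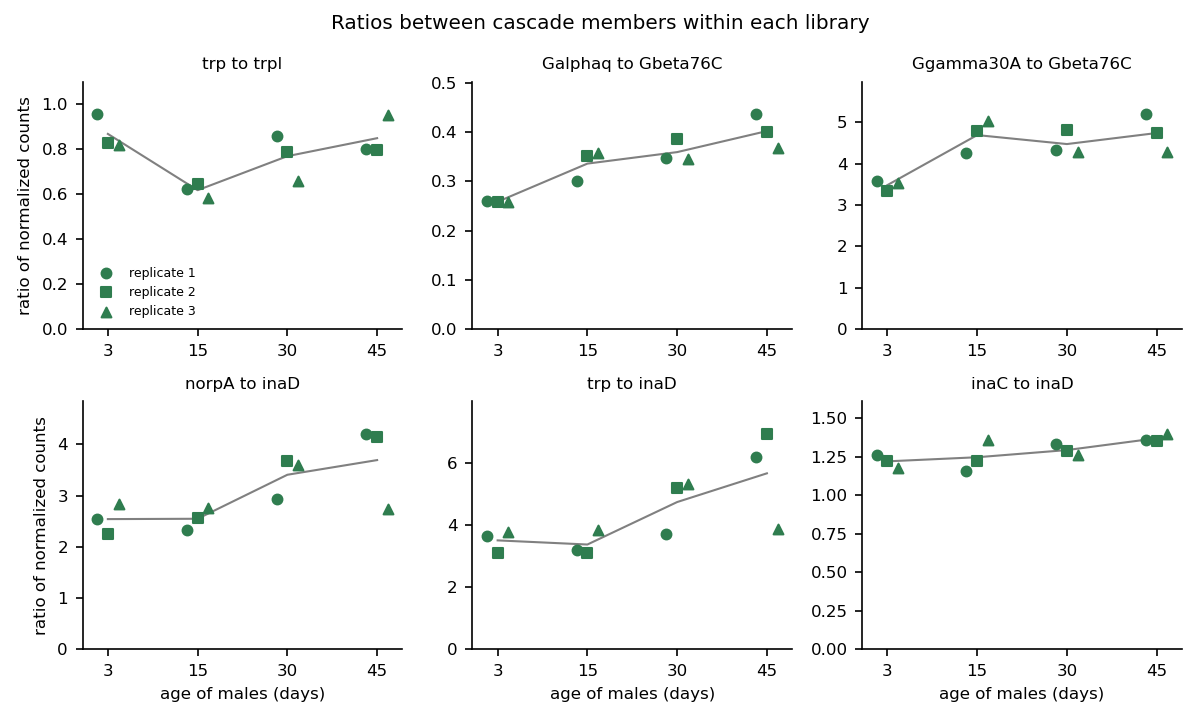
Ratios of normalized counts (y axes, from 0) between 6 pairs of cascade genes within each male library, against age in days (x axis), with symbols for replicates 1, 2 and 3 and a line through the means. Both ratios to Gbeta76C lie higher at every age after day 3, trp to trpl is lowest at day 15, and in the norpA and trp ratios to inaD day 45 replicate 3 lies apart from the other day 45 libraries.

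The neighbouring steps of the pathway were described from lists of genes. Of 16 tested genes for visual pigments and their supply, 4 rose and 4 fell between day 45 and day 3 by limma, with a median log2 change of 0.0187. Of all 8921 tested genes, 3184 were called in either direction between these ages, 1629 of them lower. The rhodopsins Rh3 (0.62, adjusted p = 5.74e-06), Rh2 (0.60, adjusted p = 9.3e-06) and Rh6 (0.42, adjusted p = 0.00623) rose, as did pinta (0.38, adjusted p = 0.0427), which encodes a retinoid-binding protein. Those that fell were ninaD (-1.47, adjusted p = 1.57e-05), a scavenger receptor for carotenoid uptake, Pdh (-0.91, adjusted p = 0.00476), a retinol dehydrogenase of pigment cells, ninaC (-0.88, adjusted p = 1.97e-05), a myosin of the microvilli, and Rh7 (-0.34, adjusted p = 0.0384). The main rhodopsin ninaE averaged 87261 normalized counts at day 3, 120504 at day 15, 107966 at day 30 and 69292 at day 45, with a day 45 change of -0.38 that missed the threshold (adjusted p = 0.138). At day 15 against day 3, 4 genes of the list rose and 2 fell, the steepest rise being that of pinta (1.11, adjusted p = 8.87e-05).

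Of 18 tested genes for shut-off of the response and the lipid cycle, 13 fell and none rose at day 45 against day 3, with a median log2 change of -0.62. The largest falls were those of laza (-0.97, limma adjusted p = 0.00045), a lipid phosphatase, rdgA (-0.96, adjusted p = 1.22e-06), the diacylglycerol kinase that removes the lipase's substrate, Calx (-0.90, adjusted p = 4.01e-07), the sodium-calcium exchanger, and Pis (-0.81, adjusted p = 1.02e-06), phosphatidylinositol synthase. Of the arrestin genes, Arr1 fell (-0.60, adjusted p = 0.00438), and Arr2 had a change of -0.30 that missed the threshold (adjusted p = 0.198). Of 17 tested relatives of the cascade genes that do not serve vision as their main role, 8 fell and 1 rose, with a median of -0.32. The largest changes among them were those of Gbeta5 (-0.83, adjusted p = 3.71e-06), Galphao (-0.50, adjusted p = 8.84e-05), Galphas (-0.46, adjusted p = 0.000557) and Ggamma1 (-0.41, adjusted p = 0.000209), which fell, and the TRP family channel wtrw rose (0.38, adjusted p = 0.00213).

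**Figure D5:**
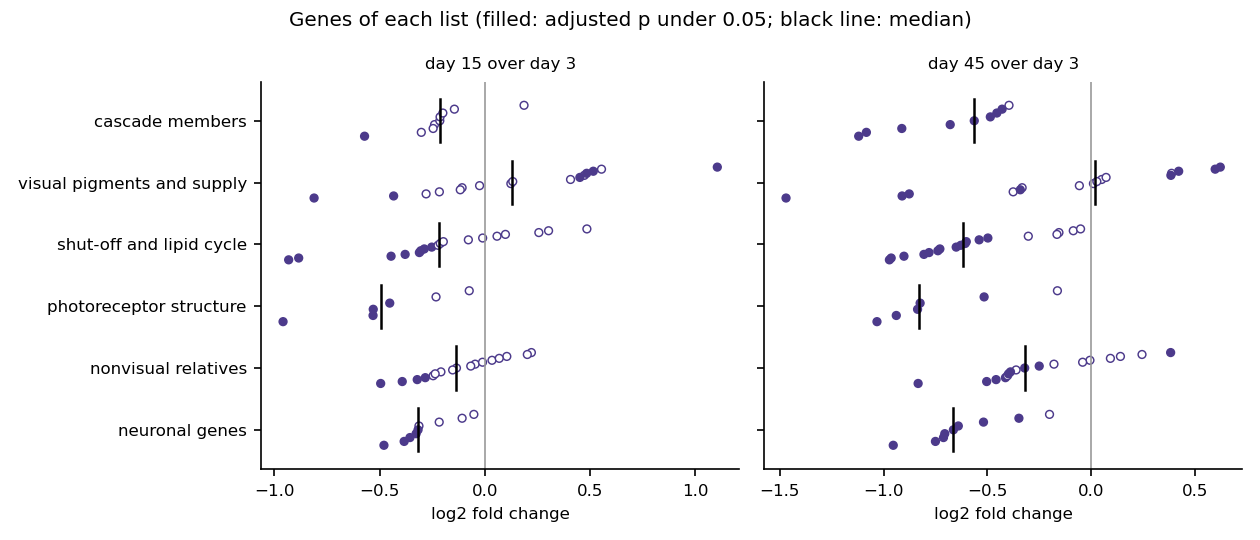
Log2 fold change (x axis) of each tested gene, grouped by list (rows), in males at day 15 over day 3 on the left and day 45 over day 3 on the right. Filled points have a limma adjusted p under 0.05, and the black line is the list's median. At day 45 the cascade genes lie between -1.12 and -0.40, while the pigment and supply genes spread to both sides of 0 around a median of 0.0187.

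Markers of cell types moved with age too. Of 6 photoreceptor structure genes 5 fell between day 45 and day 3, with a median of -0.83, among them eys (-1.03), chp (-0.82), Cpn (-0.94) and prom (-0.84). Their summed level was 6678 to 7895 normalized counts at day 45 and 11638 to 13282 at day 3, without overlap. Of ninaE, ninaC, Arr1 and Arr2, also planned as photoreceptor markers, ninaC and Arr1 fell while ninaE and Arr2 missed the threshold. Of 9 neuronal genes 8 fell (median -0.66), with summed levels of 15258 to 15724 at day 45 and 22370 to 27182 at day 3. Of 9 muscle genes 8 fell (median -1.13), with sums over 10 genes of 8548 to 8946 at day 45 and 13427 to 20302 at day 3. Of 10 glial genes 4 rose and 5 fell, of 8 blood cell genes 3 rose and 4 fell, of 6 head fat body genes 3 rose, of 6 lens and pigment cell genes 3 rose and 2 fell, and of 7 eye transcription factors 1 fell. No marker of these lists was at 0 in all libraries. The part of changes in cell content in the fall of the cascade genes was not tested.

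Outside the cascade, the genes whose profile over the 12 libraries was most like the mean profile of the 9 were sought among the 6253 tested genes that averaged 50 normalized counts or more. The closest was lovit (Pearson r = 0.991), a transporter of photoreceptor synaptic vesicles, followed by lqf (0.984), the fly epsin, Hdc (0.977), which makes the photoreceptor transmitter histamine, and Pis (0.976). The next were ninaC (0.969), CG6983 (0.958), COX8 (0.958), a subunit of cytochrome c oxidase, and PIP82 (0.958). All 8 fell between day 45 and day 3, by 0.52 (PIP82) to 1.16 (CG6983) on the log2 scale. For single members the closest were flw for inaD (0.979) and inaC (0.98), lovit for norpA (0.958), Cpn for Galphaq (0.968), Cpr49Ag for Gbeta76C (0.98), lqf for Ggamma30A (0.978), Teh3 for inaE (0.969), CG6293 for trp (0.935) and Pkn for trpl (0.917). These correlations share libraries, depth and age, and they carry no test.

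In foxo mutant females 4 of the 9 cascade genes were lower than in wild-type females at day 3 and none was higher at an adjusted p under 0.05 in the authors' deposited table, against 6.51% of all genes in that table called lower. The median log2 change there was -0.18 over the 9 genes and 0.00419 over all genes. That table gives no value per library, so overlap between libraries was not assessed, and the sources used here do not state whether its fold changes are shrunken. In the authors' deposited table the mRNA of foxo itself was higher in the mutant, by 0.33 on the log2 scale (SE 0.091, adjusted p = 0.00465). The lesion of the allele is not stated, so this level does not check the genotype.

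The kinase gene inaC was the most changed of the cascade, at a log2 change of -0.56 in the mutant (SE 0.0666, adjusted p = 3.67e-15) and a mean of 2935 normalized counts over the female libraries in the authors' deposited table. The gamma subunit gene Ggamma30A followed at -0.36 (SE 0.0732, adjusted p = 2.87e-05, mean 8009), and norpA at -0.33 (SE 0.0776, adjusted p = 0.000405, mean 4392), both in the authors' deposited table. Galphaq stood at -0.29 (SE 0.104, adjusted p = 0.0424, mean 560) in the authors' deposited table, near the threshold. At a threshold of 0.01 the authors' deposited table holds 3 called cascade genes, with Galphaq lost.

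The other 5 cascade genes missed the threshold. For trp the authors' deposited table gives a mean of 16315 normalized counts and a log2 change of 0.00241, with a 95% interval of -0.16 to 0.17. For Gbeta76C the change in the authors' deposited table was -0.04 (interval -0.18 to 0.10), and for inaD it was 0.10 (-0.04 to 0.25). For inaE the change there was -0.11 (-0.31 to 0.10), and for trpl it was -0.18 (-0.33 to -0.04), the last with an adjusted p of 0.0914. Gbeta76C and inaD, which had the largest falls with age in males (-1.12 and -1.08), were thus not among the genes called in the mutant. The genes called there, inaC, Ggamma30A, norpA and Galphaq, were all called lower at day 45 against day 3 too. That age comparison called 8 of the 9 cascade genes lower, beside 18.3% of all tested genes. With 8 of 9 called, this overlap does not set the mutant's genes apart from the rest of the cascade. The share of all genes lower in the mutant that were also lower with age is not given here. Whether age and mutant changes differ was not tested, as the tables were normalized separately and come from different sexes.

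Per kilobase, trp led the cascade in the authors' deposited table, at 3932 normalized counts per kilobase, followed by trpl (2210) and Gbeta76C (2156). The ratio of trp to trpl means in the authors' deposited table was 1.9, and in males it lay between 0.584 and 0.958 in every library. The tables were scaled separately, the female value is a ratio of means over both genotypes that depends on how those libraries were scaled, and the difference was not tested.

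In the mutant the lists around the cascade moved as follows in the authors' deposited table. Of 18 genes for shut-off and the lipid cycle 8 were lower and 1 higher, with rdgB (-0.51, a phosphatidylinositol transfer protein), stops (-0.44) and rdgA (-0.38) lower and laza (0.41) higher. In the same deposited table pigment and supply genes were lower in 4 cases and higher in 2 of 16, including Cnx99A (-0.50), Rh3 (-0.50), ninaG (-0.57) and Rh5 (-0.44), which were lower, and ninaB (0.61) and Pdh (0.26), which were higher. All 6 photoreceptor structure genes were lower in the authors' deposited table, with Cpn at -0.83, PIP82 at -0.46, eys at -0.45 and crb at -0.42. Other genes planned as photoreceptor markers were not called. In the authors' deposited table the rhodopsin gene ninaE was at 0.04 (adjusted p = 0.874) and ninaC at 0.03 (adjusted p = 0.895). The arrestin genes Arr1 and Arr2 were at 0.15 (adjusted p = 0.306) and 0.18 (adjusted p = 0.185) in the same deposited table. Of 19 nonvisual relatives 1 was lower in that deposited table, wtrw at -0.57.

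Among markers of cell types, 7 of 10 neuronal genes were lower in the mutant in the authors' deposited table (futsch -0.52, elav -0.38, cac -0.33 and brp -0.30 among them), and none was higher. Of 9 muscle genes 4 were higher, of 8 blood cell genes 6 were higher, and of 10 glial genes 1 was lower in the same deposited table. Of all 9860 genes with an adjusted p there, 1259 were called in either direction, 642 of them lower. Among 6 genes of the head fat body it calls 2 higher and 1 lower. Of 8 eye transcription factors 0 passed in the authors' deposited table, with 2 at an unadjusted p under 0.05, and of 5 lens and pigment cell genes 0 passed, with 1 at an unadjusted p under 0.05. The part of these marker changes in the lower levels of the 4 cascade genes was not tested. Across 9740 genes with an annotated exon length, the log2 change in the authors' deposited table ran lower with length (Spearman rho = -0.24, as a description). The change at day 45 against day 3 in males also ran lower with length, across 8756 genes (Spearman rho = -0.18). The part of length in the cascade's changes was not tested. The 4 cascade genes called in the mutant span exon lengths of 2351 (inaC) to 12543 bases (Ggamma30A). The 8 called at day 45 against day 3 span 1466 (Gbeta76C) to 12543 bases (Ggamma30A).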

How the data were processed

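Members and gene lists were chosen with earlier results of these data known. Per the submitters' processing notes, STAR was the aligner, HTSeq the counter and DESeq the tool for normalization, on build dm6 and without versions. No source says that the kit keeps strand. The male table was deposited as normalized counts, a signal that the authors made by dividing gene counts by a size factor per library. Divided by their library's value of 1 read, all 130608 values (100%) came out whole to within 0.001 reads, so reads could be recovered. For the females only a comparison was deposited. It holds the mean normalized count as a signal, the log2 fold change that the authors computed and its standard error. A test score and a p-value, raw and adjusted, were deposited beside them. The planned limma test of the mutant was therefore replaced by the authors' adjusted p. The direction of the deposited log2 fold change follows the table's name, and among 563 genes with an absolute change over 0.5, 81.2% had a wild-type male day 3 level nearer to wild type under that reading.

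For ages, log2(value + 1) was fitted by limma 3.58.1 (R 4.3.3) with an intensity trend in 1 model of 12 libraries, for the 8921 genes that reached a value of 10 in 3 or more libraries. Calls were made under 0.05 after Benjamini-Hochberg adjustment over these genes. Fold changes are on the log2(value + 1) scale. The test was tried on simulated counts with changes set at day 45. Against day 3 it recovered 52.2% of 1.5-fold, 85.1% of 2-fold and 97% of 4-fold changes. A change below 1.5-fold that was not called may thus have been missed. Alternatives changed the filter, pseudocount, scaling (TMM), threshold and libraries, added a replicate block, or tested recovered reads with edgeR 4.0.16 or DESeq2 1.42.0, which called 3136 and 2483 genes at day 45 against day 3, beside 3184 for limma. The clock gene index and the 6 ratios were chosen after the data were seen. Exon lengths and coordinates came from Ensembl annotation of dm6. A separate list of gene names gave symbols for 10701 of the male table's 10884 genes. Female names matched by symbol (8340) or synonym (2015), and 125 did not match. Genes named were all 9 members, up to 4 per list (largest called changes, or highest mean where none passed), the 8 most like the members' mean and the closest to each member. A few others (ninaE, Arr2 and further list members) were named after their values were seen. Tools also included Python 3.11.15 with scipy 1.17.1.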

Additional observations from a re-analysis of the deposited data

How the results depend on the processing

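The fall of the cascade genes at day 45 against day 3 was called for 8 genes in the main fit, beside 3184 genes called in either direction. It was called for 7 to 9 genes with a library left out and for 8 or 9 under all other settings. Its direction held for every gene in all of them. At day 15 against day 3 the count was 1, 2 with only the ages compared in the fit and 4 with the clock covariate. At day 30 against day 3 it was 5 (2813 genes called) and 3 at a threshold of 0.01. With a library left out it was 3 to 7, with 3 beside 2186 genes called and 7 beside 2167 or 2989. Between days 30 and 15 it was 0 (171 genes called) and 2 with only those ages fitted. With a library left out it was 0 to 2, with 2 beside 293 genes called without day 45 replicate 3. Between days 45 and 30 it was 0 (37 genes called), 1 by DESeq2 (64 called) and 3 with the clock covariate (80 called). With a library left out it was 0 to 5, with 5 beside 99 genes called without day 45 replicate 3. At thresholds of 0.01 and 0.1 the authors' deposited table gave 3 and 5 genes. Counts shown here without the number of all genes called are not results about the cascade alone. The cause of these moves was not tested.

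Reversals were seen for changes near 0. With a library left out, the log2 change of trpl at day 30 against day 3 ran from -0.31 to 0.17. Between days 30 and 15 that of Galphaq ran from -0.0388 to 0.0355, that of norpA from -0.0895 to 0.0801 and that of trp from -0.078 to 0.21. Between these ages norpA was also 0.00224 by DESeq2, 0.0051 by edgeR and 0.0185 with the clock covariate, under which trp was -0.0105 and Gbeta76C 0.11. Between days 45 and 30 inaE ran from -0.0454 to 0.10. The log2 ratio of trp to trpl, day 45 minus day 3, was -0.0333 and ran from -0.12 to 0.0392.

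Over all tested genes, replicate numbers showed little pairing of the samples. Of 18 same-number pairs 2 had correlated deviations above 0.1 (range -0.26 to 0.15). The clock gene index, however, rose from replicate 1 to replicate 3 at days 3, 15 and 30, and not at day 45. Whether libraries of the same number were collected together was not tested. With a replicate block the counts were 1, 5 and 8 at days 15, 30 and 45 against day 3, 0 in both later steps and 9 for any difference between ages, beside 7 without it. Per kilobase, the longest transcript moved Galphaq to 155 and inaE to 109. Promoter motifs were not run, for lack of sequence.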
